A study of Mus musculus with 4 samples.

Results

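HOXA5 occupancy was examined at 9 genes of cartilage formation in lungs of E15.5 mouse embryos. Of these genes, 5 encode transcription regulators (Runx2, Trps1, Sox5, Sox6 and Sox9) and 4 encode proteins of the cartilage matrix (Matn3, Matn1, Acan and Comp). They are 9 of 21779 protein-coding genes with usable positions. Chromatin immunoprecipitation followed by sequencing (ChIP-seq) recovers the DNA that a protein sits on, here with an antibody against a FLAG tag. Every library came from embryos of genotype Hoxa5FLAG/FLAG, which carry the tag on both copies of the endogenous Hoxa5 gene, so the inputs carry it too. The series holds 2 immunoprecipitates and 2 inputs, and the peak lists of the 2 immunoprecipitates were analysed. The inputs were not analysed here, nor was any lung without the tag, so peaks over regions of high background cannot be told from binding. The sample titles carry the abbreviation wt beside the tagged genotype, and peak names in the second list carry a replicate number other than its label, and the labels were followed. Whole lung mixes cell types. Whether trachea was dissected with it, and whether replicates came from separate litters, is not given in the sources used here, so agreement between them may be partly technical. The lists hold no expression values, so the labelled tissue was not checked against marker genes.

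A peak was assigned to a gene when its summit, the base of highest signal, lay inside the annotated RefSeq span, or within 100 kb with that gene as the nearest protein-coding gene. By this rule the 9 genes had 15 of the 4289 peaks of replicate 1 and 10 of the 2832 peaks of replicate 2. A peak found in both replicates, called shared here, is a pair of peaks that overlap by at least 1 bp. The 9 genes had 10 of 2175 shared peaks. Fold enrichment and −log10 q are the values the authors deposited for each peak, and both belong to the peak in its own list. Positions are in mm10.

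Airway cartilage forms from mesenchyme around the trachea and bronchi, and its rings keep the airway open. In chondrocyte precursors SOX9 is the leading regulator, and SOX5 and SOX6 bind beside it at matrix genes such as Acan, Matn1 and Col2a1. HOXA5 is a homeodomain protein of the mesenchyme of the respiratory tract, and mice without it are known to have malformed tracheal cartilage.

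The RefSeq promoter table, made from GRCm38.p6, the assembly of which mm10 is a build, held 11 starts of 6 of the 9 genes (Runx2, Sox5, Sox6, Matn3, Matn1 and Acan). A peak assigned to the gene overlapped 0 of these 11 windows of 300 bp. Over all 32851 starts of the table, 0.42% overlapped a peak of either replicate (138 starts), so 0 of 11 shows nothing particular to these genes. Trps1, Sox9 and Comp had no start in the table, Sox6 had 6, and Runx2, Sox5, Matn3, Matn1 and Acan had 1 each. Distances to any start outside the table were not measured. The sequences under the peaks were not used here, because no genome sequence was at hand. To show the letters at such starts, the 250 bases before the start closest to a shared summit are printed for 3 genes. They are Runx2, which had one of the highest folds (start 105 kb from the nearest shared summit), Sox6, whose start lay nearest to a shared summit (6.57 kb), and Matn3, the matrix gene with a shared peak (16.9 kb). Capitals mark TAAT, the core recognised by many homeodomain proteins, or ATTA, the same letters on the other strand.
Runx2, chr17:44814628-44814877, minus strand: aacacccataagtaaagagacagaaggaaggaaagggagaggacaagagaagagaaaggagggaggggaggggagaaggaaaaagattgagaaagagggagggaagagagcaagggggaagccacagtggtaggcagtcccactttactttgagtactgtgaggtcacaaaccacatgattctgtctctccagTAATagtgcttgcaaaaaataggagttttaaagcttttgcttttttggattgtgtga
Sox6, chr7:115824711-115824960, minus strand: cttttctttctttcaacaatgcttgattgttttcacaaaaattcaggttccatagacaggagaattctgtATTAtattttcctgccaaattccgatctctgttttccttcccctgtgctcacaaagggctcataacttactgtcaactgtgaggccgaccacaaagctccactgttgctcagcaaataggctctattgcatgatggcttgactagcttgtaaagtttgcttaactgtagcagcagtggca
Matn3, chr12:8947679-8947928, plus strand: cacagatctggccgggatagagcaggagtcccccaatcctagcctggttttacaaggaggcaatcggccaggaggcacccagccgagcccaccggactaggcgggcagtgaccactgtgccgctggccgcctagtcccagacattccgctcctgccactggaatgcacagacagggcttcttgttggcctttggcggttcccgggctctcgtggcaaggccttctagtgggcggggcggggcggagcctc
The windows of Runx2 and Sox6 each held 1 match and that of Matn3 held 0. Of the 32851 starts in the table, 54.9% held TAAT on either strand in the same 250 bases, so a single match is common. TAAT stood in 5 of the 11 windows of these genes. The longer form TGATNNAT, used by HOX and PBX proteins together, can contain TAAT. It stood in 7.68% of all windows and in 0 of the 11 windows of these genes. The core ACAAT of SOX proteins stood in 5 of the 11 windows (27.7% of all) and ACAAAG in 5 (16.5% of all), but 6 of the 11 starts belong to Sox6. Letters in a window are a description and not a binding site.

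Runx2 and Trps1 held the strongest peaks of the group. Runx2 encodes the runt-domain factor needed for bone formation and for the maturation of chondrocytes. It spans 319 kb of chromosome 17 (44495987 to 44814797) and lies on the minus strand. Its strongest peak was 606 bp long in replicate 1 (44557597 to 44558202) and 605 bp in replicate 2 (44557650 to 44558254). The summit fell on the same base, 44557928, in both lists. Fold enrichment there was 27.2 in replicate 1, rank 19 of 4289, and 15.4 in replicate 2, rank 21 of 2832. The −log10 q was 409 and 177. The summit lay 61.9 kb inside the lower boundary of the gene and 257 kb from its 1 start in the promoter table. The noncoding RNA gene Runx2os3 was 4.05 kb away. A second shared peak of Runx2 (44709901 to 44710294 in replicate 1) had folds of 6.42 and 4.72, and its summits were 9 bp apart. In replicate 1 a further peak of 3.87-fold stood 3.49 kb beyond it, at 44713566, with no partner in replicate 2. The Runx2 span overlaps that of its neighbour Supt3, but the 3 summits lay at least 63.6 kb from Supt3.

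Trps1 encodes a GATA-type zinc finger repressor that acts in growth plate chondrocytes. It spans 236 kb of chromosome 15 (50654757 to 50890631), and the next coding gene, Eif3h, lay 1120 kb from its strongest summit. That peak was 645 bp in replicate 1 (50665738 to 50666382) and 650 bp in replicate 2 (50665808 to 50666457), with summits 1 bp apart. Its fold was 28.7 in replicate 1, rank 13, and 20.2 in replicate 2, rank 5, with −log10 q of 398 and 215. It lay 11.3 kb inside the lower boundary of the gene and 225 kb from the upper boundary. Trps1 had no start in the promoter table, so its distance to a start was not measured. The second shared peak of Trps1, 32.1 kb further in (50697907 to 50698707), was placed differently in the lists. Its fold of 6.96 was rank 550 in replicate 1, and its fold of 2.76 was rank 2096 in replicate 2, although the summits were 11 bp apart. A replicate 1 peak of 4.93-fold lay 83.9 kb outside the gene (50974052 to 50974705) and had no partner.

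The genes whose strongest shared peak was most like that of Trps1 were chosen by distance in log2 fold over the 2 lists, among 1299 other genes with a shared peak. They were Gyg (31.9 and 18.5, distance 0.20), Gm5174 (33.7 and 19.1, distance 0.25) and Fads1 (25.5 and 17.5, distance 0.26). The measure describes 1 peak per gene in 2 libraries.

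**Figure D1:**
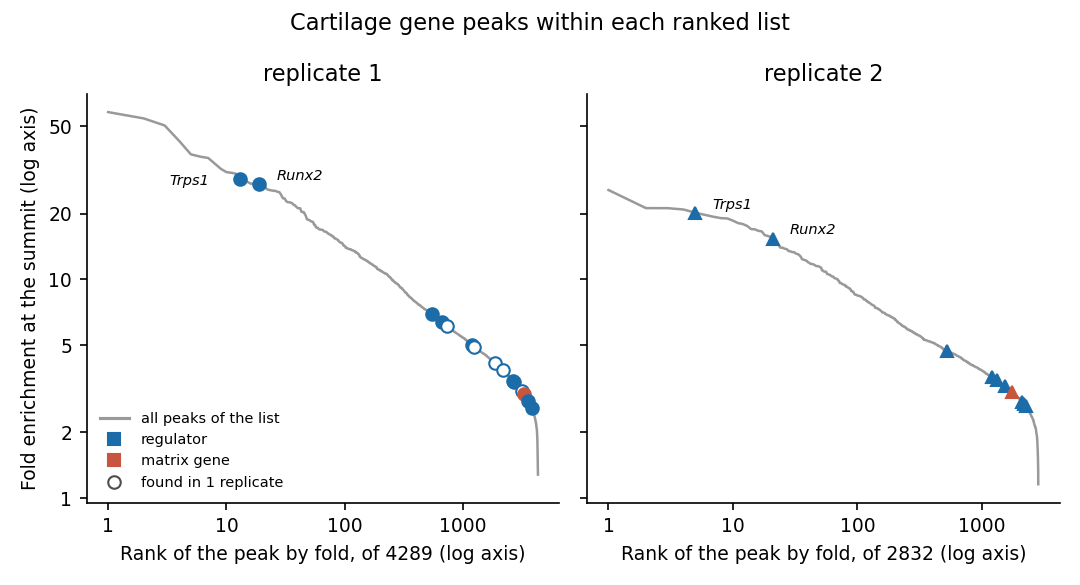
Fold enrichment (log axis) against rank by fold (log axis) for all peaks of replicate 1 (left, 4289 peaks) and replicate 2 (right, 2832 peaks), as a grey line. Points are peaks assigned to the cartilage genes, blue for regulators and red for matrix genes, open where the other replicate had no partner. Trps1 and Runx2 stand at ranks 13 and 19 in replicate 1 and 5 and 21 in replicate 2, and every other member peak lies at rank 521 or beyond.

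Sox5 and Sox6 encode the SOXD proteins, which lack an activation domain of their own and help SOX9 at cartilage genes. Their peaks were weaker. Sox5 is the longest of the 9 genes, at 954 kb of chromosome 6 (143828425 to 144782287). Its shared peaks stood 71.4 kb apart. The first (144596797 to 144597075) had folds of 2.58 in replicate 1 and 3.26 in replicate 2, with summits 96 bp apart. The second (144668118 to 144669243) had 2.79 and 2.70, with summits 2 bp apart, and was 1126 and 1470 bp long, 4.50 kb from the noncoding RNA gene Sox5os3. Both folds of each peak were below the median fold of their lists, which was 3.87 in replicate 1 and 3.36 in replicate 2. The strongest Sox5 peak of replicate 1, 4.14-fold at 144329035, had no partner, and the nearest summit of replicate 2 was 268 kb away. Each shared peak of Sox5 had a −log10 q below 5 in 1 of the lists. It was 4.84 in replicate 1 for the first and 4.68 in replicate 2 for the second. The second shared peak of Trps1 (4.15) and the shared peak inside Sox6 (4.24) were also below 5 in replicate 2.

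Sox6 had 3 shared peaks, the most of the 9 genes, but 1 of them lay inside its 570 kb span on chromosome 7 (115470872 to 116040776). That one (115817934 to 115818688) had folds of 3.41 and 2.63, and its summits were 210 bp apart, the widest gap among the 10 shared peaks. The other two lay 60.1 kb (115410591 to 115411133) and 91.1 kb (115379659 to 115380003) below the lower boundary, on the side of the 3′ end, since Sox6 lies on the minus strand. They had folds of 5.00 and 3.46, and of 3.44 and 3.57, and in each the summits were 77 bp apart. The noncoding RNA gene Gm45999 lay between them, 12.4 kb from one replicate 1 summit and 12.5 kb from the other, while the next coding gene, Insc, was 529 kb or more away. A replicate 1 peak of 3.08-fold inside Sox6 (summit 115498403), within the noncoding RNA gene Gm51455, had no partner.

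Sox9 is the key regulator of cartilage and the 1 regulator without a shared peak. The gene is short, 5548 bp on chromosome 11 (112782210 to 112787757), and the next coding gene is far off, so 206 kb of sequence could be assigned to it. Replicate 1 had a peak of 6.14-fold with −log10 q of 30.2, 19.2 kb beyond the upper boundary (112806782 to 112807255) and inside the noncoding RNA gene Gm30562. Replicate 2 had none there, and its nearest summit was 733 kb away. Of the 862 replicate 1 peaks with a −log10 q at least as high, 719 (83.4%) had a partner, so the Sox9 peak was among the other 143. Without read depth or coverage of replicate 2, whether signal was present below its threshold was not tested.

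Among the 4 matrix genes, 1 held a peak. Matn3, which encodes matrilin 3, an adaptor protein that links fibrils of the cartilage matrix, spans 24.1 kb of chromosome 12 (8947929 to 8972028). Its shared peak was 1071 bp in replicate 1 (8964649 to 8965719) and 794 bp in replicate 2 (8964528 to 8965321), with summits 86 bp apart. The folds were 2.99 and 3.06 and the −log10 q 5.81 and 5.79, below the median fold of each list. Wdr35, a neighbouring coding gene, was 9.16 kb from the replicate 1 summit.

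Matn1 (matrilin 1, chromosome 4, 130944385 to 130955476), Acan (the large proteoglycan aggrecan, chromosome 7, 79053226 to 79115099) and Comp (cartilage oligomeric matrix protein, chromosome 8, 70373548 to 70382066) had no assigned peak in either list. Peaks nearby belonged to other genes. A shared peak 11.3 kb from Matn1 lay inside Laptm5 (3.20- and 3.81-fold). A replicate 1 peak 96.7 kb from Acan was nearer to Abhd2 (5.22-fold), and a replicate 1 peak 91.8 kb from Comp lay inside Klhl26 (2.67-fold).

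**Figure D2:**
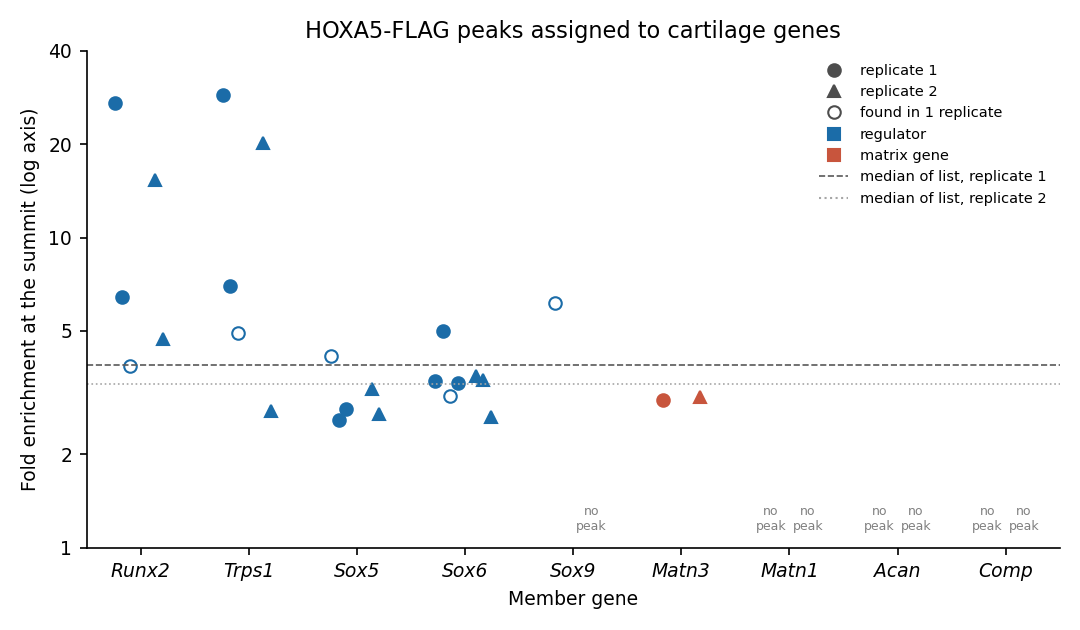
Fold enrichment at the summit (log axis) of every peak assigned to the 9 genes, circles for replicate 1 and triangles for replicate 2, open where the other replicate had no partner. Dashed and dotted lines are the median folds of the lists, 3.87 in replicate 1 and 3.36 in replicate 2. Runx2 and Trps1 hold the peaks above 15-fold, Matn3 is the matrix gene with a peak, and Sox9 has 1 open circle at 6.14.

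The regulators had more peaks than the matrix genes, but they also took up more sequence. Shared peaks were found at 4 of 5 regulators and at 1 of 4 matrix genes. Over all protein-coding genes 5.97% had a shared peak by the same rule (1300 of 21779). In replicate 1 alone, 5 of 5 regulators and 1 of 4 matrix genes had a peak, against 10.4% of all. In replicate 2 alone it was 4 of 5 and 1 of 4, against 7.58%. At least 2 shared peaks were found at 4 regulators, against 0.923% of coding genes, and 3 at Sox6, against 0.225% with 3 or more. All these shares are over coding genes of every size, and shares with 2 or more peaks were not counted by size.

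The sequence from which a summit would be assigned to a gene came to 2.90 Mb for the regulators and 0.293 Mb for the matrix genes. It ranged from 206 kb at Sox9 to 1154 kb at Sox5 among regulators, and from 18.7 kb at Comp to 129 kb at Acan among matrix genes, so the 2 groups did not overlap. Coding genes with at least 200 kb, a limit chosen after these sizes were seen, had a shared peak in 24.6% of cases (559 of 2271), and those under 200 kb in 3.8% (741 of 19508). All 5 regulators are in the first class and all 4 matrix genes in the second. Per megabase of assignable sequence the regulators had 3.10 shared peaks (9 peaks, 95% exact Poisson interval 1.42 to 5.88) and the matrix genes 3.41 (1 peak, 0.0864 to 19.0). The intervals cover counting error only. A difference between the groups in this rate was not detectable with 1 matrix peak. The matrix rate moves with the sequence counted. It was 9.47 when only summits inside the span were taken, 6.83 with a limit of 10 kb and 7.92 with noncoding genes as competitors, where the regulators had 3.36, 3.22 and 2.79. The near equality of 3.10 and 3.41 thus holds for the 100 kb rule with coding genes, and the count of 9 against 1 stands beside 9.92 times as much assignable sequence. All coding genes together had 0.824 per megabase (0.784 to 0.865). The 9 genes were picked with earlier results of these data known, so their higher rate is a description and was not tested.

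**Figure D3:**
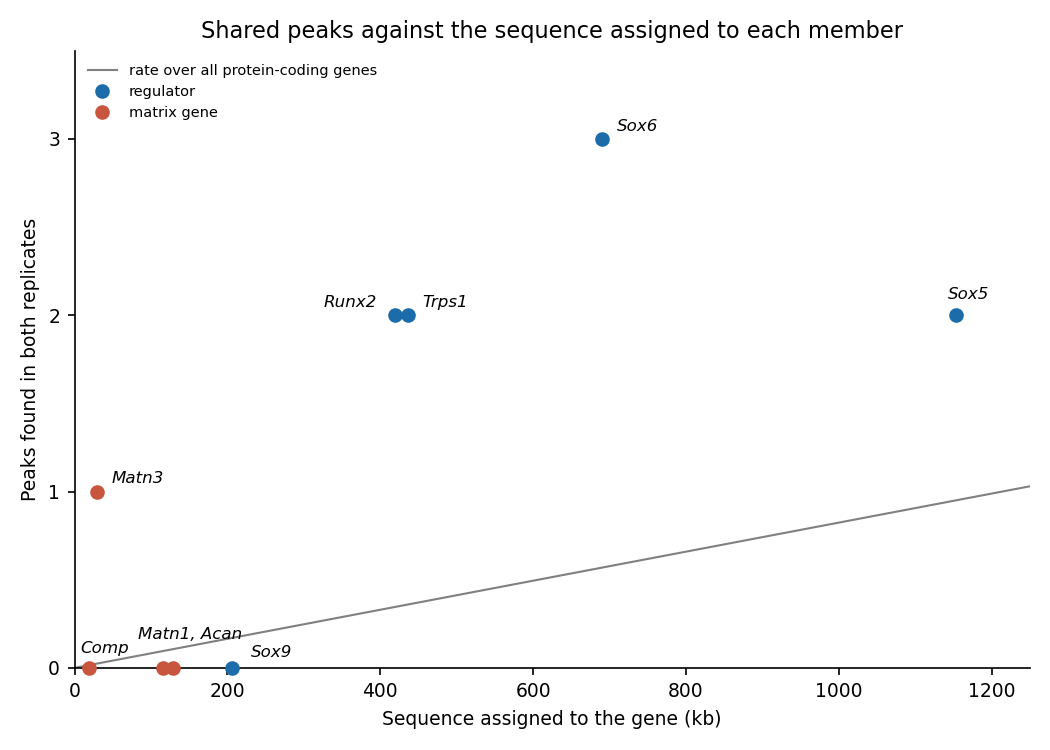
Peaks found in both replicates against the sequence from which a summit would be assigned to the gene (kb), 1 point per gene, blue for regulators and red for matrix genes. The grey line is the rate over all protein-coding genes, 0.824 per megabase. Regulators lie further right, Matn3, Runx2, Trps1, Sox5 and Sox6 lie above the line, and Matn1, Acan, Comp and Sox9 lie at 0.

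The strongest peaks all belonged to regulators, and the matrix group had 1 peak to set beside them. The 9 shared peaks of regulators had a median fold of 5.00 in replicate 1 and 3.46 in replicate 2, and the Matn3 peak had 2.99 and 3.06. Over all 2175 shared peaks the medians were 4.23 and 3.63. In replicate 1, 8 of the 15 member peaks were above the median of the list, and in replicate 2, 5 of 10. Apart from the strongest peaks of Runx2 and Trps1, folds at the 9 genes ran from 2.58 to 6.96 in replicate 1 and from 2.63 to 4.72 in replicate 2.

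Of the 10 shared peaks of these genes, 8 (80.0%) were inside, among them both peaks of Runx2, of Trps1 and of Sox5, against 54.2% (854 of 1575) of all shared peaks that were assigned to a coding gene by the same rule. By gene, 5 of the 9 held a shared peak inside the span, against 3.25% of coding genes. Neither comparison was matched for gene length. At these 5 genes the span made up most of the assignable sequence, from 236 of 436 kb at Trps1 to 954 of 1154 kb at Sox5. Whether summits favour the spans beyond that was not tested. In 9 of the 10 the summits of the 2 lists stood at most 100 bp apart, as they did in 73.0% of all shared peaks. The gaps were 0 bp at the strongest peak of Runx2, 1 bp at that of Trps1 and 2 bp at the second, weak peak of Sox5. Peaks longer than 1000 bp were 2 of 10 (at Sox5 and Matn3), against 24.5% of all.

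**Figure D4:**
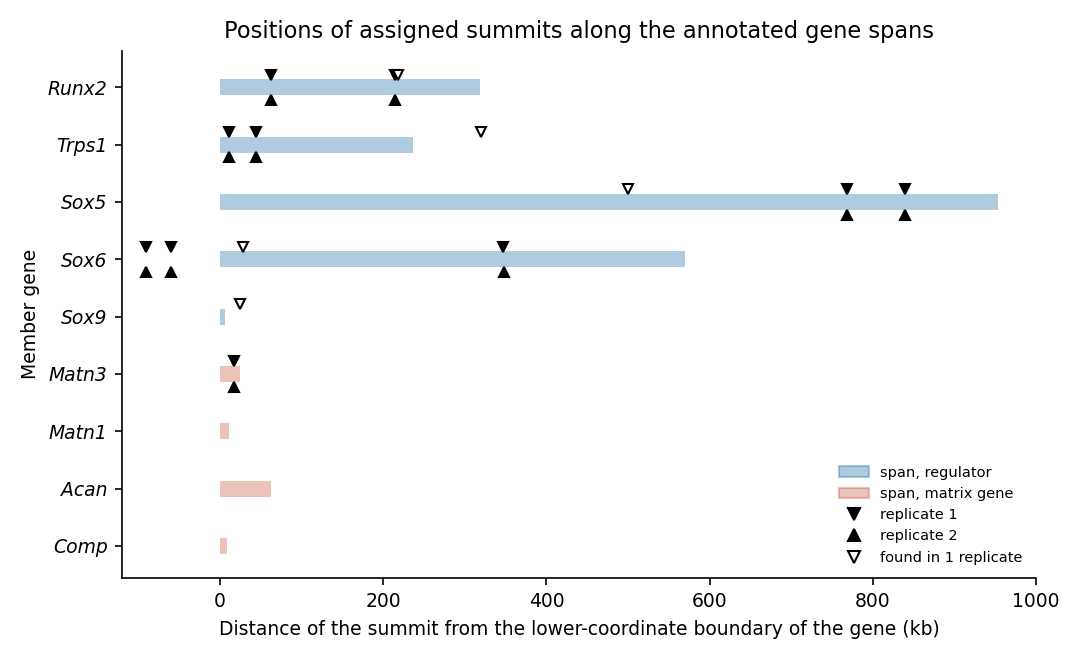
Summits assigned to the 9 genes, as distance in kb from the lower-coordinate boundary of each gene. Bars are the annotated spans, triangles above them replicate 1 and below them replicate 2, open where the other replicate had no partner. The shared peaks of Runx2, Trps1, Sox5 and Matn3 lie inside the spans, and those of Sox6 lie inside (1) and below the lower boundary (2).

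Replicate 2 had no peak of its own at these genes. All 10 of its peaks had a partner (77.6% of its list), and 10 of the 15 replicate 1 peaks had one (51.2% of its list). The 5 without a partner stood 1 each at Runx2, Trps1, Sox5, Sox6 and Sox9, with folds from 3.08 to 6.14. Among replicate 1 peaks of at least the fold of each, between 53.2% (Sox6) and 84.1% (Sox9) had a partner.

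At the 100 kb limit, the farthest peak kept was the Sox6 peak at 91.1 kb and the next was the replicate 1 peak of Trps1 at 83.9 kb. Just outside were a shared peak 130 kb below Trps1 (50524935 to 50525254, 3.30- and 3.53-fold) and one 160 kb from Matn1 (131115319 to 131115620, 6.75- and 4.03-fold). A shared peak 281 kb below Sox5 (143547665 to 143548007) had 5.95- and 6.0-fold enrichment, more than any peak inside Sox5. These 3 had the named gene as their nearest coding gene.

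Other cartilage genes were read from 3 lists written with earlier results in view, so they give no independent support. Of 39 further regulators of chondrocytes, 4 had a shared peak (10.3%, against 5.97% of coding genes). They were Arid5b, a chromatin regulator that works with SOX9 (5.30- and 5.03-fold, inside the gene), Nfia (4.00 and 3.10), Shox2, a limb homeobox gene (3.36 and 3.67, at 63.0 kb), and Gli2, an effector of hedgehog signals (2.64 and 2.85). Runx1, a paralogue of Runx2, had 2 peaks in replicate 1 and 0 in replicate 2, and Runx3 and Sox8 had 0 in both. These genes had a median of 139 kb of assignable sequence, against 45.8 kb for all coding genes. Per megabase the list had 0.537 shared peaks (0.146 to 1.38), against 0.824 for all coding genes and 3.10 for the 5 regulators above. The higher share of genes with a peak was thus not matched by a higher rate.

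Of 32 further matrix genes, 4 had a shared peak (12.5%, against 5.97% of coding genes). The small proteoglycan gene Prelp had one at 30.01 kb with 12.8-fold enrichment in replicate 1 and 3.49 in replicate 2. Matn2, a matrilin of many connective tissues, held 2 inside the gene, the stronger with 7.40 and 3.53 (chromosome 15, 34372947 to 34373366). Col2a1, which encodes the main collagen of cartilage, held one (4.59 and 4.10), and Itgbl1 another (3.01 and 2.85). Of the 4 matrilin genes, Matn2 and Matn3 therefore had shared peaks, while Matn1 and Matn4 had 0 in both lists. This list had 2.20 shared peaks per megabase (0.713 to 5.13), against 0.824 for all coding genes.

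The last list held 45 genes of signals that act in cartilage and around the airways, with receptors, enzymes and transcription factors among them. Of these, 8 had a shared peak (17.8%, against 5.97% of coding genes). The 45 genes had a median of 129 kb of assignable sequence, against 45.8 kb for all coding genes, and the shares were not matched for it. The rate was 1.66 per megabase (0.829 to 2.97), against 0.824 for all coding genes, close to the lower end of that interval. The 5 with the highest fold in replicate 1 were Tbx5 (12.8 and 6.09), Fgf10 (12.2 and 7.41), Bmpr1b (8.68 and 5.17), Ror2 (7.64 and 7.55) and Tbx4 (7.29 and 4.25). Tbx5 and Tbx4, which encode T-box transcription factors, had 3 and 1 of the 11 shared peaks of this list. Over all peaks assigned to genes of the 3 lists, shared or not, the highest fold was 12.8 in replicate 1 (41 peaks, at Tbx5) and 7.55 in replicate 2 (25 peaks, at Ror2), below the strongest peaks of Runx2 and Trps1 in the same list.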

How the data were processed

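ChIP-seq of HOXA5-FLAG was analysed from 2 peak lists, 1 per immunoprecipitate, so the authors called peaks per replicate. Per the submitters' processing notes the tools included Bowtie2 2.5.2, SAMtools 1.18, bedtools 2.31.0 and MACS3 3.0.1, with the mm10 build. Their settings, the control and any filter of regions were not stated there. Fold enrichment is a ratio the authors deposited from that caller, and the deposited −log10 p and −log10 q are its significance at the summit. Every −log10 q was above 2. The deposited score was not used. Depth is unknown, so the counts of peaks carry an error that cannot be given.

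Summits were computed as start plus offset and set against RefSeq genes of GRCm38.p6, leaving out genes starting below 3 Mb except on Y. Chains of overlapping peaks counted as 1 shared peak. Assignable sequence is the span plus the flank nearest to that gene, up to 100 kb. A summit inside 2 genes counted for both. No test was run over the genes: the members, lists and named genes were chosen with earlier results of these data known. Named are all 9 genes, up to 5 genes of each wider list by replicate 1 fold, 3 genes most like the strongest peak, and neighbours. Runx1, Runx3, Sox8 and Matn4 were added as paralogues after their values were seen. Pairing and assignment were tested on simulated data (Python 3.11.15, pandas 2.3.3, NumPy 2.4.6, SciPy 1.17.1, matplotlib 3.10.9).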

Additional observations from a re-analysis of the deposited data

How the results depend on the processing

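No paired analysis was possible because the inputs gave no values here and no test was run. Of 77 values of the main counts and rates under the 11 alternatives, 64 kept within 1.5 times the reported count or within the interval of the rate. For the matrix genes that interval (0.0864 to 19.0) is wide enough to hold rates of 6.83 (limit 10 kb), 7.92 (noncoding genes as competitors) and 9.47 (only summits inside the span), up to 2.77 times the reported 3.41. With a −log10 q of at least 10, 3 genes had a shared peak, all of them regulators (4 peaks, 1.38 per megabase, against 0.445 for all coding genes), and 0 matrix genes did (0 peaks, 0 per megabase). With a −log10 q of at least 5 the regulators had 5 shared peaks in place of 9. Sox5 then had 0 in place of 2, Trps1 had 1 in place of 2 and Sox6 had 2 in place of 3. The regulator rate was then 1.72 per megabase in place of 3.10, against 0.670 for all coding genes. That rate counts as kept because the interval of 1.42 to 5.88 holds it, although the count of peaks moved. With peaks of at most 1000 bp the matrix genes had 0 shared peaks, at 0 genes and 0 per megabase. With a limit of 500 kb, 2 matrix genes had 2 shared peaks, Matn1 being added. Leaving out replicate 1 or 2 and counting all peaks of the other list gave 9 and 14 peaks at regulators, 3.10 and 4.82 per megabase (1.09 and 1.66 for all coding genes), 4 and 5 regulators and 5 and 6 genes with a peak, Sox9 being added by replicate 1, and 1 peak at 1 matrix gene (3.41 per megabase) in each. Counting noncoding genes as competitors left Sox6 with 1 shared peak. The settings differ in the peaks, genes or sequence they count, and the cause of each move was not tested. Read depth and the inputs limit all counts.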

Other observations

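Strong shared peaks lay at a greater distance from Sox9 and Acan, inside other genes, and the assignment rule did not give them to either. They were singled out after their values were seen. The shared peak nearest to Sox9 stood 752 kb from it, inside Slc39a11 (chromosome 11, 113539343 to 113540000), and its folds were 25.8 in replicate 1 and 11.8 in replicate 2. It was rank 22 and rank 42 by fold among the 2175 shared peaks, and its summits were 1 bp apart. On the side of Acan, a shared peak inside Polg (chromosome 7, 79466320 to 79466947) lay 352 kb away at 17.2- and 8.42-fold, rank 57 and rank 101. The shared peak nearest to Acan was weaker. It stood 221 kb away, inside Det1, at 3.30- and 3.83-fold, rank 1548 and rank 966. Which gene such a peak acts on was not tested.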
